A study of Homo sapiens with 24 samples.

Results

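The mitosis and G2/M genes are 40 genes whose products work from late S phase to the end of cell division, chosen by symbol from the mitotic kinases, cyclins, kinesins, and the centromere, spindle and checkpoint genes. All 40 were found among the 58676 gene identifiers of the count table, and all 40 passed the filter on low counts in every comparison tested. Transcripts were measured by poly(A) RNA-sequencing in HSJD-DIPG-007, an established diffuse midline glioma (DMG) line grown as spheroids, in 24 libraries. Every library carries the genotype label H3F3A K27M, ACVR1 R206H and PIK3CA MIS, so all groups share these alleles and all values come from 1 line. Spheroids were given vehicle or LLY-283, an inhibitor of the arginine methyltransferase PRMT5, at the dose that inhibits growth by 40% (GI40), and each arm had 12 libraries. Days 0 and 5 were covered by 3 libraries an arm, day 7 by 2, and days 1, 2, 3 and 10 by a single library. The labels speak of a single dose, whereas the methods state that medium with fresh compound or vehicle was given after 5 days, so the libraries of days 7 and 10 may follow a second exposure.

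In a dividing cell most of these transcripts appear in a wave that builds up in S phase, peaks in G2 and mitosis and is gone in G1. B-MYB and FOXM1, acting with the MuvB complex, drive much of this wave through a short promoter element called the CHR (cell cycle genes homology region), often next to CCAAT boxes bound by NF-Y. In glioma, as in other tumours, their abundance is a standard readout of proliferation. In bulk RNA, fewer dividing cells and less of each transcript per cell cannot be told apart.

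Totals lay between 13835205 and 23190369 estimated counts a library, with a median of 18688160.5, and the 40 genes held between 63 counts (CDC25C) and 25946 counts (CENPF) in a library. The study calls the libraries of a group technical repeats, so p-values measure the spread between those libraries alone. Days 0 to 3 carry sample numbers 37 to 48 and days 5 to 10 carry numbers 1 to 12, and a difference between these sets of libraries cannot be told apart from a difference between day 5 and day 0. An earlier account of these data placed both libraries named repeat 2 of day 7 nearer the other arm. Overall profiles of day 7 were not compared between arms again here. Repeats within an arm were compared by chi-square per degree of freedom, a measure of the spread between a pair of libraries. It was 11.2 in vehicle and 13.4 in LLY-283 at day 7, and between 1.65 and 3.79 for the pairs of days 0 and 5. Values of day 7 are therefore given by library, except for CDKN1A, and with and without the repeat 2 libraries. Of 10 glioma and oligodendrocyte precursor markers, 9 exceeded 1 CPM (counts scaled to library size by TMM over the 24 libraries) in every library, with SOX10 the exception at 0.6 CPM or less, and 7 microglia and leukocyte markers summed to at most 1.17 CPM. The 10 fibroblast markers summed to between 72.6 and 240.6 CPM, highest in vehicle day 5 repeat 3 (240.6 CPM), LLY-283 day 10 (226.7 CPM), LLY-283 day 2 (174.1 CPM) and vehicle day 7 repeat 1 (156.1 CPM). They did not move together, since FN1 was at 60.1, 25.6 and 30.4 CPM in vehicle day 5 repeat 3, LLY-283 day 2 and vehicle day 7 repeat 1 and at 4.38 CPM in LLY-283 day 10, where POSTN was at 146.6 CPM.

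The letters of the CHR and of the CCAAT box were each present for most of the genes with a promoter window. They were not used to choose the 40 genes, so promoters are shown before the values. RefSeq promoter windows (GRCh38.p14, 250 bases before to 50 bases after a transcription start) were matched for 32 of the 40 genes. AURKA, TTK, PBK, TPX2, BIRC5, UBE2C, HMGB2 and FOXM1 had no window. The letters TTTGAA, read on both strands, were present for 24 of the 32 (75%), against 18.17% of 27305 genes with a window. CCAAT, read on both strands, was present for 25 (78.12%), against 39.72%, and both motifs were present for 20 (62.5%), against 7.262%. Counting TTCGAA and TTTAAA as CHR letters as well, 29 of 32 (90.62%) had one, against 29.03% of all genes. A match is a description of the letters in a window and not evidence of a bound factor. Of the genes followed by library below, the 6 with both motifs and the smallest day 5 p-values are printed, 5′ to 3′ along the gene's strand, with TTTGAA and CCAAT (or their reverse complements TTCAAA and ATTGG) in capitals. The windows are TOP2A at chr17:40417847-40418146, minus strand, PLK1 at chr16:23678639-23678938, plus strand, NUSAP1 at chr15:41332631-41332930, plus strand, KIF11 at chr10:92592880-92593179, plus strand, MKI67 at chr10:128126374-128126673, minus strand, and CDK1 at chr10:60778228-60778527, plus strand.
TOP2A: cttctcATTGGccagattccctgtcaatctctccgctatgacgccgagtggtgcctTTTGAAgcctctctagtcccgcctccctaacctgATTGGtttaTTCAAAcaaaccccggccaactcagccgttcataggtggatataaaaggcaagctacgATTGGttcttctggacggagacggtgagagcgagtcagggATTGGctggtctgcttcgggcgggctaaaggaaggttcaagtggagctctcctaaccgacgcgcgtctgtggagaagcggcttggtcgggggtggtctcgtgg
PLK1: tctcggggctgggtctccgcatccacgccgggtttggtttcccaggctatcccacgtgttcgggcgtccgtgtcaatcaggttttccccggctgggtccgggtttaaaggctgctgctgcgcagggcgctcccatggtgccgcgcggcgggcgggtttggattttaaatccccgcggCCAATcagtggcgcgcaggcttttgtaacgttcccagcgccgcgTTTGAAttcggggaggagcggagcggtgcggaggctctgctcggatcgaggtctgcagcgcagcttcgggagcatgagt
NUSAP1: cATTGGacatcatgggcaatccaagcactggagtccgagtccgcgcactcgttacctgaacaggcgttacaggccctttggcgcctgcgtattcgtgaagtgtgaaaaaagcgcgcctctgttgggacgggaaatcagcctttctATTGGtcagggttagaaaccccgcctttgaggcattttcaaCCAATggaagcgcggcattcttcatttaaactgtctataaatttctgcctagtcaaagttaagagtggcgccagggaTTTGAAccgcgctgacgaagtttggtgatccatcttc
KIF11: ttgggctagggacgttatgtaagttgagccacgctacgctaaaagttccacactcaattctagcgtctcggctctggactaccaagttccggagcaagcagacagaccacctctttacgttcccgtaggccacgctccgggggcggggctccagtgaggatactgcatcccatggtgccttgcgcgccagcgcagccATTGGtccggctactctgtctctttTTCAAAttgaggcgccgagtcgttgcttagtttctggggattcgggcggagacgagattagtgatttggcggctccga
MKI67: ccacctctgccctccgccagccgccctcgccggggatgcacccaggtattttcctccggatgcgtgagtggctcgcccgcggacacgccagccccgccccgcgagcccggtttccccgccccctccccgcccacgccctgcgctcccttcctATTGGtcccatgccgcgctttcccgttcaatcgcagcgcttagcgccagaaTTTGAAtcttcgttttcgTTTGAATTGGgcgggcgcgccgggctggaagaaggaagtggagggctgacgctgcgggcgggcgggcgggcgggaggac
CDK1: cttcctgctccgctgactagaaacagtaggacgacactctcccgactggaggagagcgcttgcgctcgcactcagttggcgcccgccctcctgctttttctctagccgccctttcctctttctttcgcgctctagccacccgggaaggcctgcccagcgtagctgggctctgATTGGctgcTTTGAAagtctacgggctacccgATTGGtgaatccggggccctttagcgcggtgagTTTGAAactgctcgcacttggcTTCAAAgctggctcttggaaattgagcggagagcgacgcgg

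PLK1 and KIF11 had a like layout, with 1 TTTGAA at position -29 and -28 from the start site and 1 CCAAT at -73 and -53. MKI67 held TTTGAA at positions -47 and -29, the latter overlapping by its last base the ATTGG at -24, and CCAAT letters also at -98. NUSAP1 differed in that its 1 TTTGAA lay after the start site, at position 13, with CCAAT at -249, -105 and -64. TOP2A held 4 CCAAT and 2 TTTGAA, the nearest of them at position -53. The CDK1 window held 2 CCAAT and 3 TTTGAA, at -69, -13 and, after the start site, 9. A second, overlapping CDK1 window held 1 of each.

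The first question was what these genes did in culture without drug. From day 0 to day 5 in vehicle all 40 rose, with a median log2 fold change of 0.73 and a range from 0.38 for NDC80 to 1.26 for CENPA and CENPE, the centromeric histone and the kinesin that carries chromosomes to the spindle equator. Of all 18369 genes tested, 22.1% rose and 15.4% fell. A gene was called at a Benjamini-Hochberg adjusted p below 0.01, from quasi-likelihood fits in edgeR over all genes. The rise was already present in the single vehicle library of day 1, where all 40 genes lay above their day 0 mean by a median of 0.75 on the log2 scale, and days 0 and 1 belong to the same set of sample numbers. Their mean log2 CPM was 6.11, 6.13 and 6.14 in the vehicle libraries of day 0, 6.88, 6.89 and 6.88 at days 1, 2 and 3, 6.87, 6.85 and 6.89 at day 5, and 6.56 at day 10. The level thus stepped up within a day and was held to day 5.

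**Figure D1:**
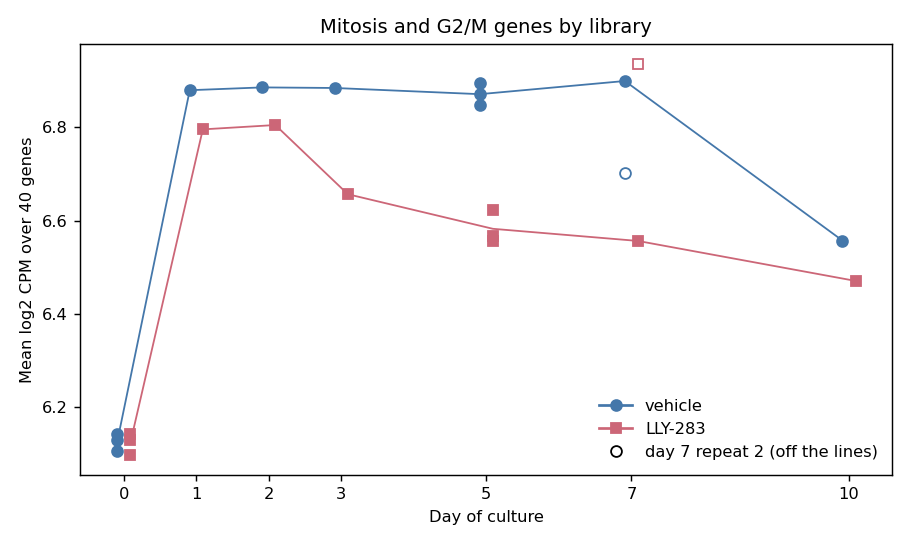
Mean log2 CPM over the 40 genes (y axis) by day (x axis), with a point for each of the 24 libraries and lines joining the means of vehicle (circles) and LLY-283 (squares). Both arms start between 6.10 and 6.14, vehicle stays between 6.85 and 6.90 from day 1 to day 7 repeat 1, LLY-283 lies below it from day 1 on, and the day 7 repeat 2 libraries (open, off the lines) lie in the reverse order.

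The mean log2 CPM in LLY-283 was 6.14, 6.10 and 6.13 at day 0, and these overlap the vehicle libraries. By edgeR 0 of the 40 genes were called between arms at day 0, 2 had a p below 0.05 before adjustment, and 0 were called by DESeq2. Over all 17780 genes tested at day 0, 0.0169% were called.

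At day 5 most of the set was modestly lower with LLY-283. Of the 40 genes, 37 were lower with LLY-283, 0 were higher and 3 were not called (CDC25C, TTK and NUF2), against 14.1% lower and 12% higher of all 16491 genes tested. All 40 log2 fold changes were negative, from -0.51 for TOP2A to -0.08 for TTK, with a median of -0.29 against 0.02 over all genes. For 38 of the 40 genes every LLY-283 library lay below every vehicle library, against 21.1% of all genes, and only TTK and NUF2 overlapped. The mean log2 CPM over the set was 6.62, 6.56 and 6.57 in LLY-283 at day 5, below each vehicle library of that day and above each library of day 0. With vehicle day 5 repeat 3, the library high in fibroblast genes, left out, 34 genes were called lower. The share of all genes called in that fit was not computed. In a single fit of the 22 libraries of days 0 to 7, 21 were called lower at day 5, against 6.04% of all genes in that fit.

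**Figure D2:**
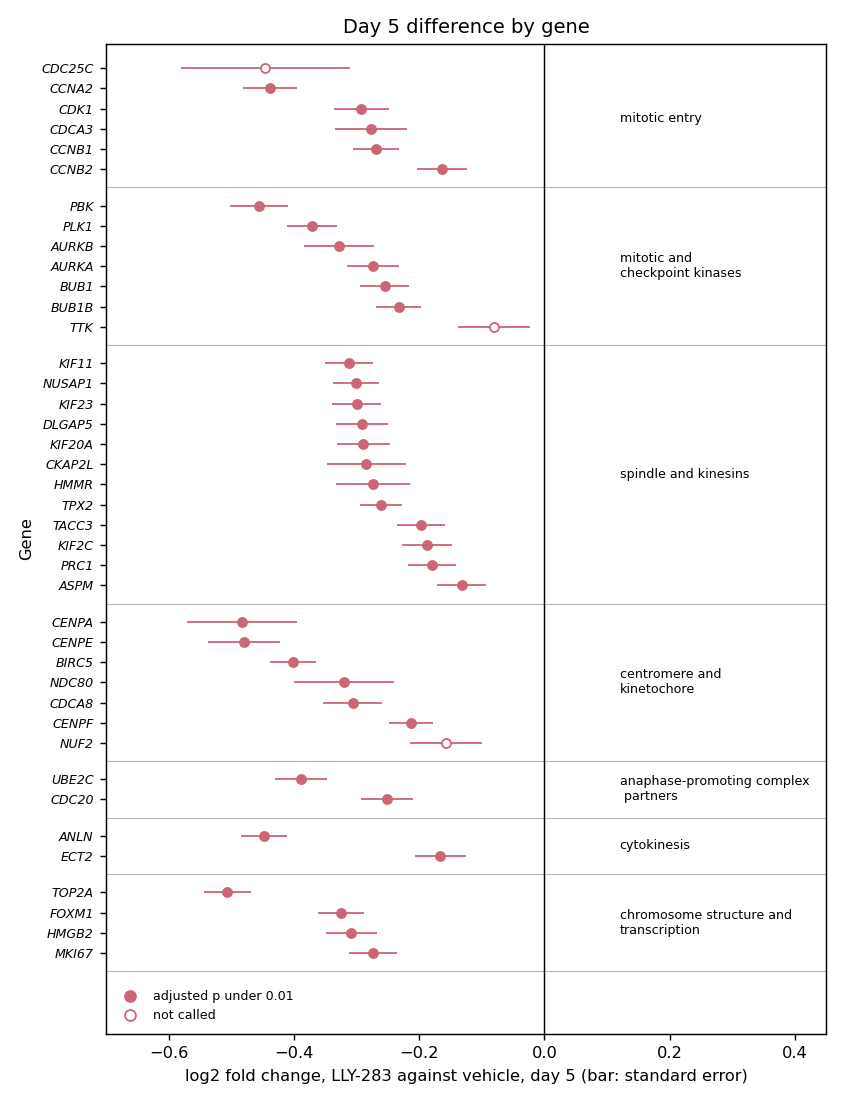
Log2 fold change of LLY-283 against vehicle at day 5 (x axis, bars are the standard error) for each of the 40 genes (y axis), grouped by role. All points lie left of 0, between -0.51 (TOP2A) and -0.08 (TTK), and the 3 open points are the genes not called.

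Among the 6 genes of mitotic entry 5 were lower at day 5. CDK1, the kinase that drives entry into mitosis, was at 126, 120.3 and 127 CPM in vehicle and 112, 96.1 and 98.9 CPM in LLY-283, a log2 fold change of -0.29 ± 0.04 (SE, n = 3 and 3, adjusted p = 6.45e-06). CCNB1, its cyclin partner in mitosis, was at 215, 209 and 206 CPM against 184, 172 and 169.8 CPM, a log2 fold change of -0.27 ± 0.04 (SE, n = 3 and 3, adjusted p = 1.30e-06). For both genes the highest LLY-283 library stayed below the lowest vehicle library. CCNA2, the cyclin of S phase and early mitosis, differed more, at 113, 114 and 116 CPM in vehicle and 92.7, 81.00 and 81.7 CPM in LLY-283, a log2 fold change of -0.44 ± 0.04 (SE, n = 3 and 3, adjusted p = 6.67e-09). CCNA2 in LLY-283 at day 5 was near its own day 0 level of 83.2, 81.7 and 83.5 CPM. CCNB2, a second B-type cyclin, differed less between the arms (-0.16 ± 0.04, adjusted p = 0.0019). CDCA3, a factor in degradation of the mitotic inhibitor WEE1, had a log2 fold change of -0.28 ± 0.06 (adjusted p = 3.50e-04). The phosphatase gene CDC25C, which activates CDK1, had the lowest counts of the set. Its values were 9.48, 12.02 and 10.7 CPM in vehicle and 6.15, 8.54 and 8.95 CPM in LLY-283, with a log2 fold change of -0.45 ± 0.14 (SE, n = 3 and 3, adjusted p = 0.0126), so its libraries were separate but its difference was not called.

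Of the 7 mitotic and checkpoint kinases 6 were lower, and TTK stood apart. PLK1, the polo kinase of centrosome maturation and spindle assembly, was at 120.1, 124 and 118 CPM in vehicle and 99.1, 90.8 and 92.04 CPM in LLY-283, a log2 fold change of -0.37 ± 0.04 (SE, n = 3 and 3, adjusted p = 3.68e-08). PBK, a mitotic kinase also called TOPK, was at 90.3, 86.2 and 91.99 CPM against 71.2, 62.97 and 62.9 CPM, a log2 fold change of -0.46 ± 0.05 (SE, n = 3 and 3, adjusted p = 9.90e-09), and its level in LLY-283 was close to the 65.2, 63.96 and 62.3 CPM of day 0. For both kinases every LLY-283 library was below every vehicle library. TTK, the MPS1 kinase that starts the spindle checkpoint, was at 34.9, 34.8 and 37.4 CPM in vehicle and 35.2, 32.9 and 33.7 CPM in LLY-283, a log2 fold change of -0.08 ± 0.06 (SE, n = 3 and 3, adjusted p = 0.291). In LLY-283 1 library of TTK lay within the vehicle range. AURKA and AURKB, the Aurora kinases of the centrosome and of the chromosomal passenger complex, were lower by log2 fold changes of -0.27 ± 0.04 and -0.33 ± 0.06. BUB1 and BUB1B, the kinase and pseudokinase that hold the checkpoint at unattached kinetochores, had log2 fold changes of -0.26 ± 0.04 and -0.23 ± 0.04, and the adjusted p of these 4 genes lay between 6.08e-06 and 2.97e-05. BUB1B shares exons with PAK6 on the same strand, and the counting does not show how such reads were divided.

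All 12 genes of the spindle and its kinesins were lower. KIF11, the kinesin that pushes spindle poles apart, was at 160.3, 152 and 165 CPM in vehicle and 135, 126 and 126 CPM in LLY-283, a log2 fold change of -0.31 ± 0.04 (SE, n = 3 and 3, adjusted p = 3.12e-07). NUSAP1, a microtubule-bundling protein of the spindle, was at 194, 189.8 and 199.8 CPM against 167, 156 and 154 CPM, a log2 fold change of -0.30 ± 0.04 (SE, n = 3 and 3, adjusted p = 2.58e-07). The group was tight, with all values between -0.31 for KIF11 and -0.13 for ASPM and a median of -0.28. KIF20A, a kinesin of the central spindle with the largest rise in LLY-283 over time, was at 86.6, 81.5 and 84.4 CPM in vehicle and 70.4, 68.8 and 68.7 CPM in LLY-283, a log2 fold change of -0.29 ± 0.04 (SE, n = 3 and 3, adjusted p = 4.18e-06). ASPM, which focuses spindle poles, had the weakest call of the set at 433, 430.1 and 483 CPM against 409, 408 and 418 CPM, a log2 fold change of -0.13 ± 0.04 (SE, n = 3 and 3, adjusted p = 0.00989). The ASPM call was lost when vehicle repeat 3, or any of the 3 LLY-283 libraries, was left out, with log2 fold changes between -0.15 and -0.08. KIF23, a motor of the cytokinetic midzone (-0.30 ± 0.04), DLGAP5, a stabiliser of kinetochore fibres (-0.29 ± 0.04), CKAP2L, a spindle protein (-0.28 ± 0.06), HMMR, a spindle-pole adaptor (-0.27 ± 0.06), and TPX2, the activator of Aurora A (-0.26 ± 0.03), lay near the group median. TACC3, which cross-links spindle microtubules (-0.20 ± 0.04), KIF2C, a microtubule-depolymerising kinesin (-0.19 ± 0.04), and PRC1, which bundles the central spindle (-0.18 ± 0.04), differed less. NUSAP1 and PRC1 overlap exons of other annotated genes on the same strand.

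Of the 7 centromere and kinetochore genes 6 were lower. BIRC5 (survivin), a subunit of the chromosomal passenger complex, was at 192, 185 and 193 CPM in vehicle and 151, 143 and 141 CPM in LLY-283, a log2 fold change of -0.40 ± 0.04 (SE, n = 3 and 3, adjusted p = 1.41e-09). CDCA8 (borealin), of the same complex, was at 63.3, 62.2 and 61.9 CPM against 50.5, 52.03 and 49.99 CPM, a log2 fold change of -0.31 ± 0.05 (SE, n = 3 and 3, adjusted p = 8.00e-06). In both genes the arms were separate and the libraries of an arm close together. CENPA, the histone variant that marks centromeres, varied more in vehicle, at 28.9, 24.9 and 33.3 CPM, against 21.8, 19.1 and 21.5 CPM in LLY-283, a log2 fold change of -0.48 ± 0.09 (SE, n = 3 and 3, adjusted p = 2.78e-04). NDC80, the microtubule-binding core of the kinetochore, was at 27.02, 23.9 and 28.9 CPM against 20.4, 20.01 and 23.6 CPM, a log2 fold change of -0.32 ± 0.08 (SE, n = 3 and 3, adjusted p = 0.00233). The NDC80 arms came close, and its call was lost when vehicle repeat 1, vehicle repeat 3, LLY-283 repeat 1 or LLY-283 repeat 2 was left out, with log2 fold changes between -0.32 and -0.27. CENPE (-0.48 ± 0.06) had among the largest differences between arms of the 40, whereas CENPF, a large kinetochore protein, had a smaller log2 fold change (-0.21 ± 0.03). NUF2, the partner of NDC80, was not called, at 91.5, 87.6 and 101 CPM in vehicle and 92.5, 83.03 and 77.5 CPM in LLY-283 with overlapping arms and a log2 fold change of -0.16 ± 0.06 (SE, n = 3 and 3, adjusted p = 0.0448). CENPA shares exons with SLC35F6 on the same strand.

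The remaining 8 genes, for the anaphase-promoting complex, cytokinesis, chromosome structure and transcription, were all lower. UBE2C, the ubiquitin-conjugating enzyme that works with the anaphase-promoting complex, was at 106, 106 and 104 CPM in vehicle and 85.9, 79.6 and 77.3 CPM in LLY-283, a log2 fold change of -0.39 ± 0.04 (SE, n = 3 and 3, adjusted p = 2.56e-08). CDC20, the mitotic activator of that complex, had a log2 fold change of -0.25 ± 0.04. UBE2C has 5 annotated genes named as copies of it, to which some of its reads could be assigned. ANLN (anillin), a scaffold of the cytokinetic ring, was at 162, 159.9 and 162 CPM against 125, 117 and 115 CPM, a log2 fold change of -0.45 ± 0.04 (SE, n = 3 and 3, adjusted p = 2.48e-10), and ECT2, the exchange factor that positions the ring, had -0.17 ± 0.04. TOP2A, the topoisomerase that untangles sister chromatids, had the largest difference between arms of the 40. It was at 419, 392 and 435 CPM in vehicle and 309, 288 and 285 CPM in LLY-283, 0.704 times the vehicle level by the fit, with a log2 fold change of -0.51 ± 0.04 (SE, n = 3 and 3, adjusted p = 3.77e-11). The 3 LLY-283 libraries of TOP2A lay below the 3 of vehicle, and still above its day 0 level of 219, 214 and 221 CPM in the same arm. MKI67, the Ki-67 proliferation antigen that coats mitotic chromosomes, was at 627, 611 and 575 CPM against 491, 515 and 503 CPM, a log2 fold change of -0.27 ± 0.04 (SE, n = 3 and 3, adjusted p = 1.57e-06). FOXM1, itself a transcription factor of the G2/M wave, was at 439, 439.8 and 402 CPM against 349, 344 and 337 CPM, a log2 fold change of -0.33 ± 0.04 (SE, n = 3 and 3, adjusted p = 8.71e-08). HMGB2, a chromatin protein of the HMG-box family, had a log2 fold change of -0.31 ± 0.04. The arms of all 8 genes were separate at day 5.

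The comparison of changes over time asked whether the rise from day 0 to day 5 differed between arms. In LLY-283 35 of the 40 genes rose and 0 fell, with a median log2 fold change of 0.47, against 22.6% of all genes risen and 16.9% fallen. The 5 genes not called in LLY-283 were CCNA2 (0.06 ± 0.04), PBK (0.06 ± 0.05), UBE2C (0.10 ± 0.04), CKAP2L (0.11 ± 0.06) and NDC80 (0.14 ± 0.08). In vehicle these genes rose by 0.57 ± 0.04, 0.61 ± 0.05, 0.48 ± 0.04, 0.42 ± 0.06 and 0.38 ± 0.08. The LLY-283 change was smaller than the vehicle change for all 40 genes, with a median difference of -0.28 on the log2 scale, and the difference was called for 28, against 8.15% of all genes called lower and 6.78% higher. Nearly all of these calls were lost in a single fit of the 22 libraries of days 0 to 7, where 1 of the 40 genes was called, against 0.135% of all genes called lower. A fit of 20 libraries without both repeat 2 libraries of day 7 was chosen after the values were seen. In that fit all 19 genes chosen by rule to be given by library kept their result, called or not called, for this comparison. In the fit of 22 libraries 5 of the 19 did. Calls over the 40 genes in the fit of 20 are not counted here, since their share over all genes was not computed. The 6 differences of greatest size were those of PBK (-0.55), CENPE (-0.53), CCNA2 (-0.51), TOP2A (-0.50), BIRC5 (-0.46) and ANLN (-0.42).

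TOP2A shows the pattern. In vehicle it went from 210.4, 221 and 222 CPM at day 0 to 409 CPM at day 1 and 419, 392 and 435 CPM at day 5, a log2 fold change of 0.95 ± 0.04 (SE, n = 3 and 3, adjusted p = 2.63e-18). In LLY-283 it went from 219, 214 and 221 CPM to 377 CPM at day 1, 369.6 CPM at day 2, 331 CPM at day 3 and 309, 288 and 285 CPM at day 5, a log2 fold change of 0.45 ± 0.04 (SE, n = 3 and 3, adjusted p = 2.28e-11). The first step up was thus present in both arms, and the LLY-283 values of TOP2A were below those of vehicle at days 1, 2, 3 and 5. KIF20A rose most in LLY-283, from 35.8, 37.6 and 36.1 CPM to 70.4, 68.8 and 68.7 CPM, a log2 fold change of 0.95 ± 0.04 (SE, n = 3 and 3, adjusted p = 6.42e-17). The smallest value was that of CCNA2, from 83.2, 81.7 and 83.5 CPM to 92.7, 81.00 and 81.7 CPM, a log2 fold change of 0.06 ± 0.04 (SE, n = 3 and 3, adjusted p = 0.264). Between the 40 genes the vehicle and LLY-283 changes followed each other (Pearson r = 0.897, Spearman rho = 0.901 across 40 genes, which share libraries and are not independent). Of the 12 genes whose changes were not called different, CCNB2, CDC25C, CDCA3, BUB1B, TTK, HMMR, ASPM, TACC3, CENPA, NDC80, NUF2 and ECT2, the differences lay between -0.36 and -0.11.

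**Figure D3:**
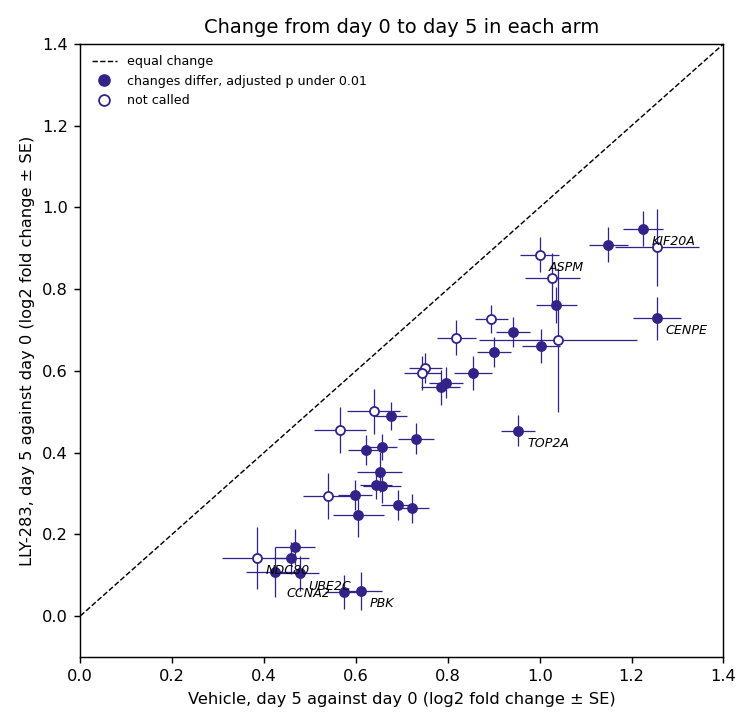
Log2 fold change from day 0 to day 5 in vehicle (x axis) against LLY-283 (y axis) for each of the 40 genes, with standard errors and a dashed line of equal change. All points lie below the line, and the 28 filled points are the genes whose changes differ at an adjusted p under 0.01.

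At days 1, 2, 3 and 10 each arm had a single library, so their differences have no replicate check and no test. On the log2 CPM scale the LLY-283 library was below the vehicle library for 38 of the 40 genes at day 1 (median -0.08), 35 at day 2 (median -0.09) and 37 at day 3 (median -0.26), while 54.6%, 52.5% and 46.7% of all genes were below. At day 3 the largest gaps were those of PLK1 (-0.48), FOXM1 (-0.42) and CDCA8 (-0.42). PLK1 was then at 116 CPM in vehicle and 83.4 CPM in LLY-283, FOXM1 at 421 and 315 CPM, and CDCA8 at 68.7 and 51.4 CPM. ECT2, ASPM and NUF2 were the 3 genes not lower at day 3. The LLY-283 libraries of days 2 and 10 are among those with high summed fibroblast markers, and their part in these values was not tested. At day 10, 31 genes were lower with a median of -0.07, while 45.3% of all genes were below. Both arms had come down, to a mean log2 CPM of 6.56 in vehicle and 6.47 in LLY-283. The differences between arms at day 10 ran from -0.42 to 0.10. BIRC5, for example, was at 131 CPM in vehicle and 130.2 CPM in LLY-283 at day 10, and KIF11 at 111 and 114 CPM. TOP2A was at 366 and 308 CPM.

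At day 7 the answer depended on which libraries were compared. Between the repeat 1 libraries all 40 genes were lower with LLY-283, by a median of -0.36, whereas between the repeat 2 libraries 38 were higher with LLY-283, by a median of 0.21. Of all genes, 52.9% were lower with LLY-283 between the repeat 1 libraries and 54.2% between the repeat 2 libraries. TOP2A was at 392 and 312 CPM in vehicle repeats 1 and 2 and at 291 and 416 CPM in LLY-283 repeats 1 and 2. CCNA2 was at 116 and 107 CPM and 85.6 and 126 CPM in the same order, and BIRC5 at 191 and 182 CPM and 148 and 187 CPM. For these 3 genes LLY-283 repeat 2 thus lay within or above the range of the vehicle libraries of day 5, while vehicle repeat 2 did not lie at 1 level for all genes. MKI67 was at 533 and 359.7 CPM in vehicle and 490.1 and 603 CPM in LLY-283 at day 7. For this gene vehicle repeat 2 was at the level of day 0 (366, 354 and 340.3 CPM in vehicle). The set was not, with a mean log2 CPM of 6.70 in that library against 6.11, 6.13 and 6.14 in vehicle at day 0. Across the 40 genes, the difference of vehicle repeat 2 from the vehicle day 5 mean was lower for longer transcripts (Spearman rho = -0.566). The same held for vehicle repeat 1 of day 7 (rho = -0.462). The values of LLY-283 repeats 1 and 2 of day 7 were 0.04 and -0.29. MKI67 has the longest transcript of the 40, and the part of length was not tested. With the 4 libraries tested by label, edgeR called 0 of the 40 genes, of which 0 had a p below 0.05 before adjustment, and DESeq2 also called 0. Over all 16826 genes edgeR called 0 (0%), 236 had a p below 0.05 before adjustment, and 3 were called by DESeq2. Without both repeat 2 libraries, in a fit of 20 libraries chosen after the values were seen, 20 of the 40 genes were lower at day 7, against 2.54% of all 20714 genes in that fit, where the lone library of each arm is assumed to vary like the other groups.

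**Figure D4:**
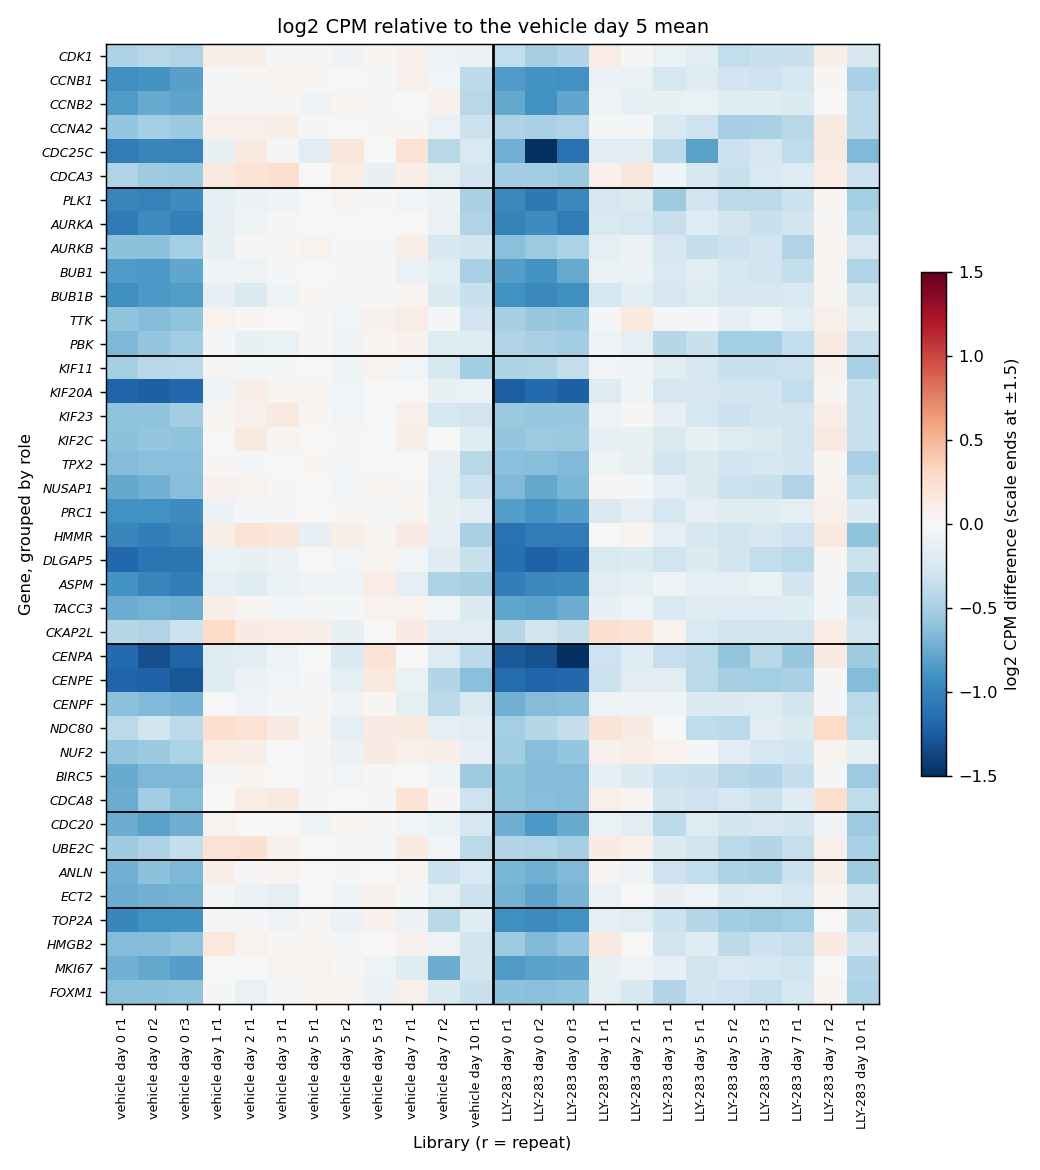
Log2 CPM of each of the 40 genes (rows, by role) in each of the 24 libraries (columns), as the difference from the gene's vehicle day 5 mean. Day 0 is low in both arms, LLY-283 at day 5 and day 7 repeat 1 is paler blue across nearly every row, and LLY-283 day 7 repeat 2 is at or above 0 in most rows.

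Other genes of cell division moved with the set at day 5, though not all did. Of 34 other kinetochore and checkpoint genes, 26 were lower and 0 higher (median -0.30), among them CENPH (-0.70), SPDL1 (-0.43) and the KMN scaffold KNL1 (-0.39). Of 25 other spindle and cytokinesis genes, 18 were lower and 1, PSRC1, was higher (median -0.24), led by the abscission factor CEP55 (-0.59), FAM83D (-0.57) and KIF20B (-0.47). Of 17 condensin, cohesin and separase genes, 14 were lower (median -0.22), led by the condensin subunits NCAPG (-0.46), NCAPG2 (-0.38) and NCAPH (-0.36). Of 17 genes of the anaphase-promoting complex and its partners 6 were lower, 0 higher and 11 not called (median -0.11). UBE2S (-0.35), FBXO5 (-0.26) and CDC27 (-0.17) were at their head, and of these UBE2S and FBXO5 are partners and not subunits. Of 36 S phase genes 33 were lower and 0 higher (median -0.33), led by RRM2, a subunit of ribonucleotide reductase (-0.78), the polymerase subunit POLA1 (-0.57) and the helicase subunit MCM4 (-0.47). The genes given with values in each list are those of smallest p at day 5, and not always those of greatest log2 fold change. All these lists were chosen with earlier results known, and their counts are descriptions beside the 14.1% of all genes called lower.

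Over time the other lists of cell division genes did not all rise. From day 0 to day 5 in LLY-283, 27 of the 36 S phase genes fell and 1 rose, with a median of -0.25, where 35 of the 40 mitosis and G2/M genes rose. In vehicle 14 S phase genes rose and 3 fell. RRM2 was at 233, 244 and 254 CPM at day 0, 296 CPM at day 1 and 231, 220.4 and 236 CPM at day 5 in vehicle, where day 5 lay close to day 0. In LLY-283 it was at 248, 242 and 244 CPM at day 0, 268 CPM at day 1 and 141, 134 and 127 CPM at day 5, so that it ended below its day 0 level with drug. Of the other spindle and cytokinesis genes, 25 of 25 rose in vehicle, and in LLY-283 22 rose and 1 fell. The other kinetochore and checkpoint genes differed from that, with 19 of 34 risen and 0 fallen in vehicle, and 5 risen and 9 fallen in LLY-283 (median -0.05). Of all genes tested, 22.1% rose and 15.4% fell in vehicle, and 22.6% rose and 16.9% fell in LLY-283. Differences between the lists were not tested.

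**Figure D5:**
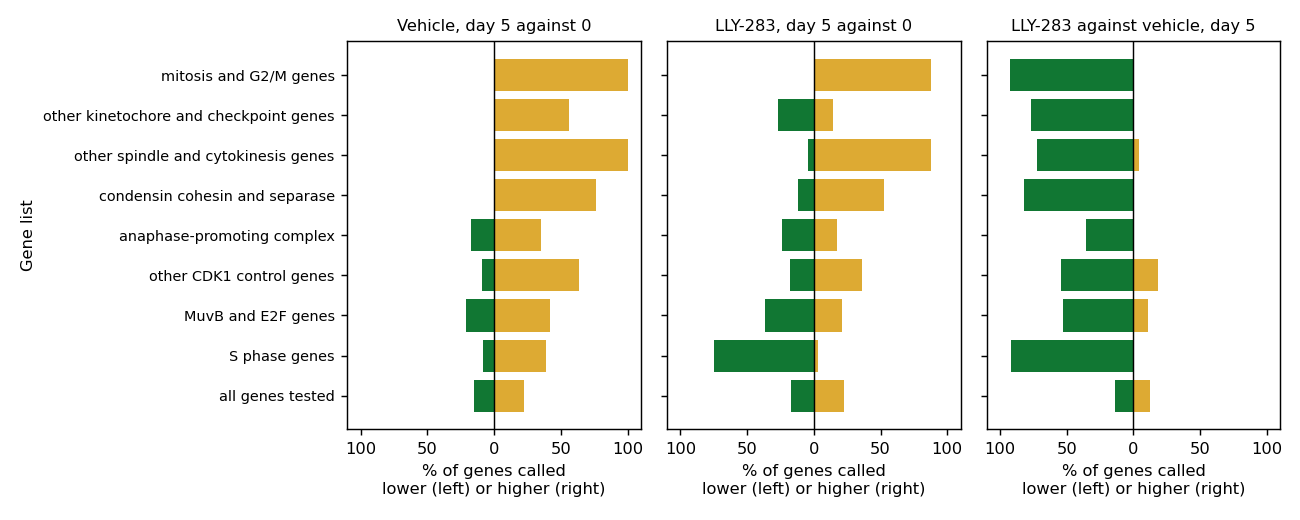
Share of genes called lower (left, green) or higher (right, yellow) at an adjusted p under 0.01 (x axis, percent) in 3 comparisons (panels) for the mitosis and G2/M genes, 7 other lists of cell division genes and all genes tested (rows). The mitosis and G2/M genes rise in 40 of 40 (vehicle) and 35 of 40 (LLY-283) and are lower in 37 of 40 with LLY-283 at day 5, while the S phase genes fall over time in 27 of 36 with LLY-283.

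Of the regulators of this wave, some were lower and some higher. MYBL2, which encodes B-MYB, had a log2 fold change of -0.50 ± 0.04 (adjusted p = 1.58e-10) at day 5, and E2F1 of -0.19 ± 0.05 (adjusted p = 0.00194). Among 19 MuvB and E2F genes 10 were lower and 2 higher, with TFDP1 (-0.40) lower and TFDP2 (0.38) higher. Among 11 other genes of CDK1 control 6 were lower and 2 higher (median -0.16). Beside both counts, 14.1% of all 16491 genes tested were called lower and 12% higher. CDC25A (-0.49) and CCNF (-0.45) were lower, and WEE1, the kinase that holds CDK1 inactive, was not called (-0.03 ± 0.04, adjusted p = 0.651). CDKN1A, the p21 inhibitor of cyclin-dependent kinases, went the other way. It was at 363, 392 and 384 CPM in vehicle at day 0, 218 CPM at day 1 and 162, 163 and 167 CPM at day 5, a profile opposite in direction to that of the 40 genes. In LLY-283 it was at 389, 381 and 380.3 CPM at day 0, 224, 164 and 145 CPM at days 1, 2 and 3, and 244, 234 and 223 CPM at day 5. The CDKN1A arms lay close together at days 1, 2 and 3 and were separate at day 5, with a log2 fold change of 0.50 ± 0.04 (SE, n = 3 and 3, adjusted p = 2.41e-11). At day 7 by label, CDKN1A averaged 253.6 CPM in vehicle and 233.2 CPM in LLY-283 (SD 70.5 and 72.8, n = 2 and 2). These means join the repeat 1 and repeat 2 libraries, so they do not show whether the arms differed within a repeat.

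Exons of 4 of the 40 genes overlap another gene on the same strand, and 15 overlap one on the other strand. For 11 genes the annotation holds copies by name (the symbol, P and a number), and the type of these copies was not checked. The library kit keeps strand, but whether the counting used it is not given in the sources used here, so reads of overlapping genes could be counted for either. Cell type markers did not all stay level between the arms at day 5. The neuron markers summed to between 158.7 and 169.4 CPM in LLY-283 and between 108.2 and 112.0 CPM in vehicle at day 5. That sum was nearly all GAD1 (mean 55.3 CPM in vehicle and 94.3 CPM in LLY-283) and SYT1 (53.4 and 68.9 CPM). RBFOX3, SNAP25, SLC17A7 and NEFL each averaged at most 1.26 CPM in either arm. The glioma markers summed to between 10355 and 10624 CPM in LLY-283 and between 9638 and 10096 CPM in vehicle. Of the 9 glioma markers tested, 4 were called higher and 2 lower with LLY-283, against 12% higher and 14.1% lower of all genes. The 10 fibroblast markers summed to 72.6, 77.3 and 240.6 CPM in vehicle and to 140.4, 134.4 and 136.7 CPM in LLY-283, and 6 endothelial markers to at most 25.6 CPM in any library. The part of these markers in the lower level of the 40 genes with LLY-283 was not tested.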

How the data were processed

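HSJD-DIPG-007 poly(A) RNA was sequenced in 24 libraries, 12 an arm. The authors deposited kallisto estimated counts per gene in whole numbers (hg38, kallisto per the submitters' notes). The version, the step from transcripts to genes and the strand setting are not given in the sources used here. Library totals limit the precision of low counts.

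Genes with low counts were removed (filterByExpr by group), counts were TMM-scaled, and edgeR's quasi-likelihood test (R 4.3.3, edgeR 4.0.16, limma 3.58.1, robust) was fitted over all genes, with Benjamini-Hochberg adjustment and calls at 0.01. log2 CPM used a prior count of 2. DESeq2 1.42.0, other scalings and filters, and left-out libraries were alternatives. The code was tested on simulated data. The members and lists were chosen with earlier results of these data known. Values by library were given for CDK1, CCNB1, MKI67, FOXM1, the genes of smallest day 5 p in each role group and those of extreme change. CDC25C, NUF2 and RRM2 were added after their values were seen.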

Additional observations from a re-analysis of the deposited data

Results flagged for a closer look

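The change from day 0 to day 5 differed between the arms, by an interaction term in edgeR's quasi-likelihood test at an adjusted p below 0.01, for 28 of the 40 mitosis and G2/M genes, against 8.15% of all genes lower and 6.78% higher. In a single fit of the 22 libraries of days 0 to 7 the difference was called for 1 of the 40. Of the 19 genes chosen by rule to be given by library, 5 kept their result in that fit. All 19 kept it in a fit without both repeat 2 libraries of day 7, chosen after the values were seen. All 28 differences (LLY-283 change minus vehicle change, log2) were negative, so each gene gained less with LLY-283. They were, in order of role, CDK1 -0.30, CCNB1 -0.25, CCNA2 -0.51, PLK1 -0.34, AURKA -0.27, AURKB -0.36, BUB1 -0.26, PBK -0.55, KIF11 -0.32, KIF20A -0.28, KIF23 -0.30, KIF2C -0.22, TPX2 -0.24, NUSAP1 -0.30, PRC1 -0.25, DLGAP5 -0.24, CKAP2L -0.32, CENPE -0.53, CENPF -0.19, BIRC5 -0.46, CDCA8 -0.30, CDC20 -0.22, UBE2C -0.37, ANLN -0.42, TOP2A -0.50, HMGB2 -0.34, MKI67 -0.22, FOXM1 -0.32. Among the 19 MuvB and E2F genes 6 were lower and 2 higher, and among the 11 other CDK1 control genes 5 were lower and 1 higher. Of the 4 regulators named by rule, MYBL2 (-0.51) and E2F1 (-0.22) also gained less or lost more with LLY-283, CDKN1A, the p21 gene, had the opposite sign (0.49), and WEE1 was not called.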

How the results depend on the processing

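At day 5, 37 of the 40 genes were lower, against 14.1% of all genes. This was 36 with library size alone, 37 with DESeq2 and 39 without a filter on low counts. By DESeq2, 1914 of all 16491 genes were called lower. With 1 library left out the count was 33 to 37, the lowest being without LLY-283 day 5 repeat 2. In a single fit of all 22 libraries of days 0 to 7, 21 were called at day 5 and 1 for the difference of changes. Of all genes in that fit, 6.04% and 0.135% were called lower. That fit contains the day 7 libraries. A fit of 20 libraries, without both repeat 2 libraries of day 7, was chosen after the values were seen. Its calls over the 40 genes at day 5 and for the difference of changes are not counted, since their share over all genes was not computed. Of the 19 genes chosen by rule to be given by library, all 19 kept their result in that fit in both comparisons. In a fit of the 18 libraries of days 0 to 5, also not planned beforehand, 18 kept it at day 5 and 19 for the difference of changes. With 1 library left out, the difference of changes was called for 22 (without LLY-283 day 0 repeat 3) to 29 genes, the LLY-283 change over time for 32 to 35, the vehicle change for 40 to 40, and days 0 and 7 for 0 to 0. With the repeat number as a replicate block, 38 genes were called at day 5, 40 for the vehicle change, 34 for the LLY-283 change, 25 for the difference of changes and 0 at days 0 and 7. Shares of all genes called were not computed for the left-out libraries, the block, library size alone or the fit without a filter. At days 0 and 5, libraries of the same number did not deviate together from their group means, and day 7 was not checked. The main fits did not treat a shared number as a pairing. Single named genes gave 722 values at day 5 and for the difference of changes. Of these, 0 changed sign, 33 lost their call and 1 gained it. Signs of the other genes and comparisons were not compared gene by gene. The single fit of 22 libraries held 14 of the losses for the difference of changes and 6 of those at day 5. Among the losses were ASPM and NDC80 at day 5, and MKI67 for the difference of changes with library size alone. The cause was not tested.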
